A study of Homo sapiens with 18 samples.

Results

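The 10 keratin genes described here are KRT16, KRT6A, KRT6B, KRT17, KRT14, KRT5, KRT36, KRT8, KRT18 and KRT19, taken by symbol from a table of 26443 genes that holds 55 keratin genes in all. RNA was sequenced from LNCaP, an androgen-responsive human prostate carcinoma line with a luminal character, in 6 groups of 3 libraries. Cells carried lentivirus for 5 days, either the pGIPZ control shRNA vector (control), an shRNA against FOXA1 (shFOXA1), an shRNA against HIF1A (shHIF1A), or the last pair together. Control and shFOXA1 cells were also grown with 40 µM KC7F2, a compound labelled as a HIF1A inhibitor, for 24 h. CoCl2, which mimics hypoxia chemically, was present at 100 µM for the last 24 h in all 6 groups, controls included, so no group shows the keratins without it. The labels do not say whether cells without KC7F2 received a vehicle. All libraries come from a single cell line, the labels do not tell how many shRNA sequences were used per target, and they do not say whether the 3 replicates of a group were separate cultures, so the p-values measure the spread between these libraries.

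Keratins are the intermediate filament proteins of epithelia, and each filament needs a type I and a type II keratin in a pair. KRT8 (type II) and KRT18 (type I), with KRT19, form the filaments of simple epithelia such as the luminal cells of the prostate, while KRT5 and KRT14 pair in the basal layer of stratified epithelia. KRT6A and KRT6B (type II) and KRT16 and KRT17 (type I) are the stress keratins, which keratinocytes switch on after wounding and in hyperproliferation, and KRT36 is a type I keratin of hair. FOXA1 is a pioneer transcription factor of luminal prostate cells, and HIF1A is the oxygen-regulated subunit of hypoxia-inducible factor. The comparisons ask how the keratins respond to loss of FOXA1 and whether that response differs when HIF1A is also depleted or KC7F2 is present.

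The targeted genes checked the labels. FOXA1 stood at 97.5 ± 22.7 RPKM (reads per kilobase of transcript, scaled to library depth; SD, n = 3) in control, 34.1 ± 1.51 in shFOXA1, 64.5 ± 5.77 in shFOXA1 with shHIF1A and 39.3 ± 4.59 in shFOXA1 with KC7F2. It was therefore less depleted in the double knockdown: it was higher than in shFOXA1 alone by 0.91 ± 0.16 (SE) on the log2 scale (limma, adjusted p = 0.000302). HIF1A stood at 23.1 ± 7.91 RPKM in control, 3.56 ± 0.642 in shHIF1A, 89.9 ± 8.998 in shFOXA1, 4.32 ± 0.245 in shFOXA1 with shHIF1A and 62.8 ± 10.6 in shFOXA1 with KC7F2. Depth recovered from the steps in the deposited values was 3289000 to 12125000 reads per library, rounded, and lower on average in the 3 groups with shFOXA1 (group means of 6083000 to 8264000) than in the other 3 (10830000 to 11128000). Control replicate 1 and replicates 1 and 3 of control with KC7F2 stood apart from the other 15 libraries by higher values of short genes, and the calls that change without these 3 are named below. In bulk RNA, fewer cells that carry a transcript and less of it per cell cannot be told apart.

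The 10 genes lie in the keratin clusters on chromosomes 17 and 12 (GENCODE 29, GRCh38). On chromosome 17, all on the minus strand, are KRT16 (ENSG00000186832, chr17:41609778-41615899), KRT17 (chr17:41619441-41624842), KRT14 (chr17:41582279-41586921), KRT36 (chr17:41486136-41492546) and KRT19 (chr17:41523617-41528308). On chromosome 12 are KRT6A (chr12:52487174-52493257), KRT6B (chr12:52446651-52452126), KRT5 (chr12:52514575-52520687) and KRT8 (chr12:52897187-52949954) on the minus strand and KRT18 (chr12:52948871-52952901) on the plus strand. KRT18 is a type I gene that lies beside KRT8 in the type II cluster. The gene models of KRT8 and KRT18 overlap by 1084 bases on opposite strands, and neither the library kit named in the labels nor any source used here gives a strand setting, so reads in that overlap cannot be told apart.

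KRT6A and KRT6B are near-identical copies of each other and of KRT6C, and their values are uncertain to that extent. Over 1695 aligned coding bases KRT6B and KRT6A differed at 43 positions (97.5% identity), KRT6B and KRT6C at 26 (98.5%), and KRT6A and KRT6C at 35 (97.9%). The longest run identical in all 3 was 269 bases, at coding positions 148 to 416 counted from the A of the start codon. Of all 50-base windows, 47.1% of those in KRT6B and 39.1% of those in KRT6A also occurred in a transcript of another gene. The 60 coding bases at positions 663 to 722 are shown because they hold a dense stretch of the differences by which reads of the 3 genes can be told apart, with capitals at each base that differs among them.
KRT6B: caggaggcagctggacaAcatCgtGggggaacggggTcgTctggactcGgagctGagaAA
KRT6A: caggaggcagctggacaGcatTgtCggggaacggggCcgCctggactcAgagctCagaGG
KRT6C: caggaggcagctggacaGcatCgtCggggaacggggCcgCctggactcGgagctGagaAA
In this window KRT6A differed from KRT6B at 9 bases and KRT6C differed from KRT6B at 4.

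The type I members are less alike. Coding identity was 88.6% between KRT16 and KRT14, 81.1% between KRT16 and KRT17 and 86.5% between KRT14 and KRT17. The windows below lie at coding positions 966 to 1025 of KRT16, 960 to 1019 of KRT14 and 867 to 926 of KRT17, 3 genes that behaved differently. They are the 60 bases without a gap that hold the most differences between KRT16 and KRT14, so they are not typical of the coding sequence. Capitals mark each base that differs among the 3 genes.
KRT16: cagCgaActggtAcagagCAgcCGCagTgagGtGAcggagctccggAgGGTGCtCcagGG
KRT14: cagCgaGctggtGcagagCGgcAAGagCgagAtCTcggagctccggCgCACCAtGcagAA
KRT17: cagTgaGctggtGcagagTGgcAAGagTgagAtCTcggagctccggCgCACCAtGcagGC
KRT14 and KRT17 each differed from KRT16 at 19 of these 60 bases. Of 50-base windows, 22.01% of KRT16, 23.8% of KRT14 and 15.98% of KRT17 occurred in another gene's transcript, against 0 of 1658 in KRT36, so KRT36 is the member whose reads are least open to sharing.

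The stress keratin KRT16 had the largest rise of all 12900 genes tested when FOXA1 was depleted. It stood at 0.0513, 0.151 and 0 RPKM in the 3 control libraries and at 39.0, 49.2 and 39.5 RPKM in the 3 shFOXA1 libraries. In shFOXA1 with shHIF1A the values were 9.30, 7.10 and 10.9 RPKM, and in shFOXA1 with KC7F2 they were 3.74, 3.92 and 5.32 RPKM. The groups without shFOXA1 were near the limit of detection, at 0.242 to 0.357 RPKM in shHIF1A and 0.0524 to 0.145 RPKM in control with KC7F2. The order was shFOXA1, shFOXA1 with shHIF1A, shFOXA1 with KC7F2, shHIF1A, control with KC7F2 and control, and of the neighbours in that order only the last pair overlapped. These levels rest on 1384 reads over the 3 shFOXA1 libraries and 4 over the 3 control libraries, a ratio after scaling to depth of 605 (exact 95% interval 236 to 2225). This and the other intervals on reads cover counting error only.

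KRT6B, a type II stress keratin, followed KRT16 in shFOXA1 but not in the double knockdown. KRT6B stood at 0.887, 0.265 and 0.595 RPKM in control and at 20.5, 23.2 and 20.9 RPKM in shFOXA1. In shFOXA1 with shHIF1A it was at 0.269, 0.676 and 0.728 RPKM, inside the range of control, and in shFOXA1 with KC7F2 at 3.76, 4.06 and 2.90 RPKM, apart from both. The shHIF1A libraries, at 0.307 to 0.690 RPKM, overlapped with control and with the double knockdown, and control with KC7F2 was lowest and apart from the rest at 0.0725 to 0.226 RPKM. KRT6B had 932 reads in shFOXA1 against 44 in control (ratio 37.1, 27.4 to 51.4), and 26 in the double knockdown against 37 in shHIF1A (ratio 1.25, 0.727 to 2.12).

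KRT6A, the other type II stress keratin, was also highest in shFOXA1. It was at 1.17, 1.67 and 1.34 RPKM in shFOXA1, above every other library. All other groups overlapped with their neighbours in the order, from 0, 0.756 and 0.533 RPKM in the double knockdown down to 0.0359, 0.0705 and 0 RPKM in control. KRT6A had 64 reads in shFOXA1 and 3 in control (ratio 37.3, 12.2 to 186). Its near copy KRT6C, which is not among the 10, stood at 4.54 ± 0.213 RPKM in shFOXA1, 0.271 ± 0.267 in control, 0.107 ± 0.142 in the double knockdown and 0.928 ± 0.322 in shFOXA1 with KC7F2.

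KRT17, a stress keratin of wounds and skin appendages, was barely detected. It reached at most 0.208 RPKM in any library, had 0 to 2 reads in each, and was above 0 in 8 of 18 libraries. Of its groups, shHIF1A was above 0 in all 3 libraries (5 reads) and control with KC7F2 in none (0 reads), and KRT17 was not tested. KRT5, the type II keratin of basal cells, was listed at 0 in all 18 libraries, which for its 2531-base transcript allows a level of up to 0.00736 RPKM at 3 reads over all libraries together.

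KRT14, the type I partner of KRT5, was expressed without it. Its values were 1.72, 1.64 and 1.24 RPKM in control, 3.10, 5.21 and 4.49 RPKM in shFOXA1 and 6.38, 3.40 and 4.06 RPKM in shFOXA1 with shHIF1A. In shFOXA1 with KC7F2 they were 3.26, 4.29 and 2.58 RPKM. The 3 groups with shFOXA1 overlapped with each other and lay above control, and control lay above shHIF1A (0.550 to 0.812 RPKM) and control with KC7F2 (0.506 to 0.770 RPKM), which overlapped.

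KRT36, the hair keratin, was the member that was highest in the double knockdown rather than in shFOXA1 alone while near 0 in control. It was at 0, 0.158 and 0.0590 RPKM in control, 3.63, 4.18 and 5.29 RPKM in shFOXA1 and 8.22, 7.32 and 6.71 RPKM in shFOXA1 with shHIF1A. In shFOXA1 with KC7F2 it was at 2.25, 2.82 and 3.75 RPKM, which overlapped with shFOXA1, and in control with KC7F2 it was listed at 0 in every library. The double knockdown lay above all other groups, and shHIF1A, at 0.160 to 0.547 RPKM, lay just above control. KRT36 had 133 reads in shFOXA1 and 4 in control (ratio 58.2, 22.2 to 217). With KC7F2 it had 119 reads with shFOXA1 and 0 without. Taking the 0 as 3 reads over the group gives a ratio of 52.9, which leaves out the counting error of the 119 reads.

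The luminal pair stayed at high levels throughout. KRT8 ranged from 134 to 224 RPKM in control and from 225 to 263 RPKM in shFOXA1, and its 6 groups formed a chain in which every neighbour overlapped. The shFOXA1 libraries of KRT8 nevertheless lay above those of all other groups but shHIF1A, the gap to control being the one between 223.9 and 225 RPKM. KRT18 ranged from 85.6 to 148 RPKM in control and from 109 to 149.6 RPKM in shFOXA1, again with every neighbour overlapping. The double knockdown, at 98.8 to 112 RPKM of KRT18, lay below both groups with KC7F2 (121 to 147 and 122 to 133 RPKM). In both genes the control group was the widest, with replicate 3 the lowest control library (134 RPKM of KRT8 and 85.6 RPKM of KRT18). The ratio of KRT8 to KRT18 RPKM within a library was 1.47 ± 0.125 in control, 1.69 (1.598 to 1.797) in shHIF1A, 1.23 ± 0.0498 in control with KC7F2, 1.92 ± 0.190 in shFOXA1, 1.82 ± 0.0948 in the double knockdown and 1.501 ± 0.0627 in shFOXA1 with KC7F2. All 3 shFOXA1 libraries were above all 3 control libraries in that ratio, and so were all 3 of shHIF1A and all 3 of the double knockdown.

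KRT19, the smallest type I keratin and another simple keratin, differed more between groups than the pair. Its values were 9.63, 7.63 and 4.42 RPKM in control, 12.1, 9.70 and 10.6 RPKM in shHIF1A and 3.94, 3.00 and 5.26 RPKM in control with KC7F2. They were 12.6, 14.7 and 17.2 RPKM in shFOXA1, 20.03, 21.2 and 18.95 RPKM in shFOXA1 with shHIF1A and 12.7, 12.1 and 15.0 RPKM in shFOXA1 with KC7F2. The double knockdown lay above all others, shFOXA1 with and without KC7F2 overlapped below it, and shHIF1A, control and control with KC7F2 followed, the last pair overlapping.

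**Figure D1:**
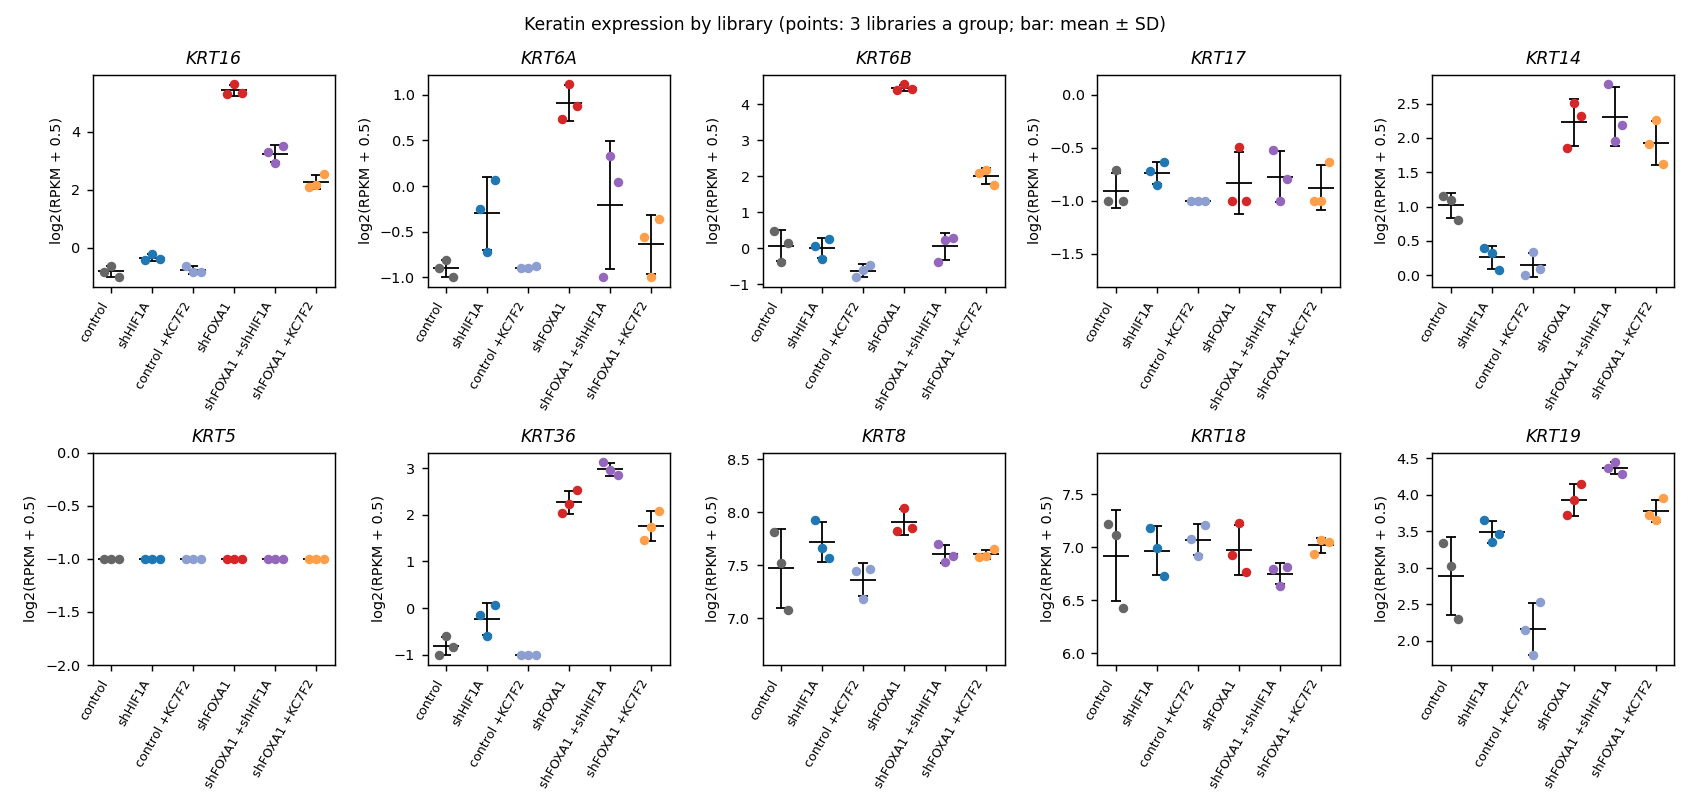
Level of each of the 10 keratins as log2(RPKM + 0.5) in every library by group (points), with the mean ± SD of 3 libraries (bars). KRT16, KRT6B and KRT36 are low without shFOXA1, KRT17 and KRT5 stay at the floor, and each group of KRT8 and KRT18 overlaps with the next in their order of levels; the vertical scale differs between panels.

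Summed over the 10 genes, KRT16, KRT6A, KRT6B, KRT17, KRT14, KRT5 and KRT36 made up 0.753% ± 0.0745 of the RPKM in control and 16.3% ± 0.468 in shFOXA1. The share was 6.45% ± 0.430 in the double knockdown, 4.11% ± 0.193 in shFOXA1 with KC7F2, 0.670% ± 0.198 in shHIF1A and 0.297% ± 0.0711 in control with KC7F2. The 3 groups with shFOXA1 did not overlap with each other or with the rest. KRT8, KRT18 and KRT19 therefore still made up 83.7% ± 0.468 of the sum in shFOXA1.

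The stress, basal and hair keratins were summed by type. The type I genes KRT16, KRT17, KRT14 and KRT36 summed to 51.3 ± 6.78 RPKM in shFOXA1, against 22.9 RPKM for the type II genes KRT6A, KRT6B and KRT5. In the double knockdown the same sums were 21.2 ± 3.17 and 0.987 ± 0.628 RPKM, and in shFOXA1 with KC7F2 they were 10.7 ± 1.31 and 3.73 ± 0.477 RPKM. KRT6A plus KRT6B over KRT16 plus KRT17 was 0.541 ± 0.0330 in shFOXA1, 0.115 ± 0.0867 in the double knockdown and 0.891 ± 0.268 in shFOXA1 with KC7F2, 3 ranges that did not overlap. With KRT6C added to KRT6A and KRT6B the ratio was 0.648 ± 0.0432, 0.126 ± 0.0728 and 1.11 ± 0.340 in the same groups.

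**Figure D2:**
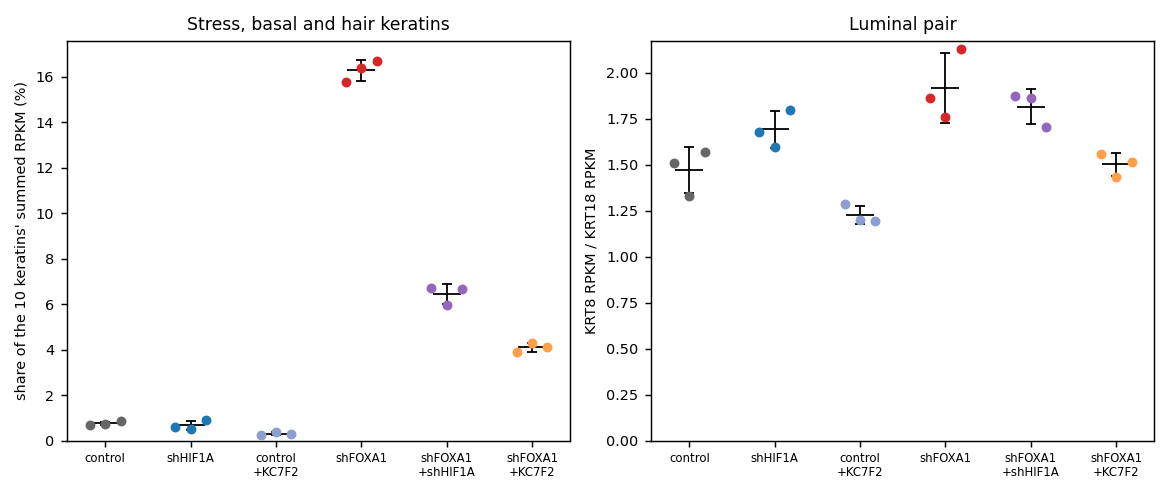
Left, the share in percent of the summed RPKM of the 10 keratins held by the 7 stress, basal and hair members; right, KRT8 RPKM divided by KRT18 RPKM, by library (points) with mean ± SD over 3 libraries (bars). The share is 15.8% to 16.7% in shFOXA1 and below 1% in each library without shFOXA1, while the KRT8 to KRT18 ratio stays between 1.20 and 2.13.

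Changes were tested with limma on log2(RPKM + 0.5), on which a fold is understated for low genes, and were called at an adjusted p below 0.05 over all genes tested. A gene was tested if it had 1 RPKM or more in at least 3 libraries, and 8 of the 10 members were. KRT17 and KRT5 were not. KRT16, KRT6A, KRT6B and KRT36 reached 1 RPKM only in libraries with shFOXA1, so they could enter the test only by being high there.

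With FOXA1 knockdown against control, 7 of the 10 keratins rose and 0 fell, where 9.52% of all tested genes rose and 14.6% fell. The 10 were chosen with earlier results of these data known, and KRT16, KRT6A, KRT6B and KRT36 entered only through libraries with shFOXA1. This count and those in the comparisons below therefore describe the members and are no test of an excess over the shares. KRT16 rose by 6.25 ± 0.17 on the log2 scale (limma, adjusted p = 3.84e-13), KRT6B by 4.39 ± 0.23 (7.94e-10), ranked 9 of 12900, and KRT36 by 3.08 ± 0.20 (1.21e-08), ranked 26. KRT6A rose by 1.82 ± 0.32 (limma, adjusted p = 0.000569), KRT14 by 1.21 ± 0.22 (0.000774) and KRT19 by 1.04 ± 0.22 (0.00206). KRT8 rose by 0.44 ± 0.15 (0.0466), a call that was lost without control replicate 2 (0.0776) or 3 (0.173) or without shFOXA1 replicate 1 (0.0681), 2 (0.147) or 3 (0.0858). KRT18 was at 0.06, with a 95% interval of -0.32 to 0.43 (0.858). With median-ratio scaling between libraries, 11.9% of all genes rose and 11.4% fell in this comparison.

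The same depletion was tested in cells with shHIF1A. There 4 of the 10 keratins rose and 0 fell, where 5.27% of all tested genes rose and 9.25% fell (6.96% and 7.93% with quantile normalisation). KRT16 rose by 3.59 ± 0.17 (limma, adjusted p = 1.01e-09), KRT36 by 3.21 ± 0.20 (4.04e-08), KRT14 by 2.05 ± 0.22 (1.10e-05) and KRT19 by 0.87 ± 0.22 (0.0121), the last lost without shHIF1A replicate 2 (0.0568). KRT6B was at 0.05, with a 95% interval of -0.44 to 0.53, and KRT6A at 0.09, with one of -0.59 to 0.78, neither called. In cells with KC7F2, 5 of the 10 rose with FOXA1 knockdown and 0 fell, where 8.88% of all genes rose and 24.1% fell. KRT16 rose by 3.03 ± 0.17 (limma, adjusted p = 2.15e-09), KRT36 by 2.76 ± 0.20 (4.78e-08), KRT6B by 2.64 ± 0.23 (3.46e-07), KRT14 by 1.78 ± 0.22 (1.97e-05) and KRT19 by 1.62 ± 0.22 (3.82e-05). With median-ratio scaling the background in cells with KC7F2 was 14.5% rising and 14.1% falling, and the median change of all genes moved from -0.15 to 0.00. KRT8 and KRT18 were not called in either background, although with KC7F2 KRT8 passed under median-ratio scaling (0.41, adjusted p = 0.0209) and quantile normalisation (0.57, 8.86e-06).

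**Figure D3:**
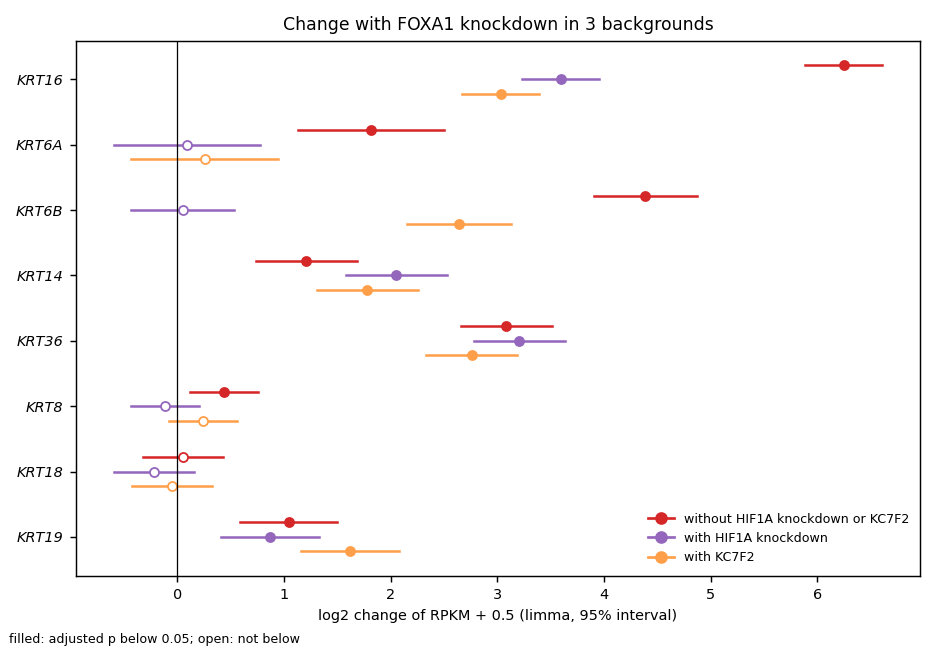
Change with FOXA1 knockdown (log2 of RPKM + 0.5, limma estimate and 95% interval) of the 8 tested keratins without HIF1A knockdown or KC7F2, with HIF1A knockdown and with KC7F2; filled points passed an adjusted p of 0.05. The 3 intervals of KRT36 overlap around 3, those of KRT16 with and without HIF1A depletion lie apart at 3.59 and 6.25, and KRT6B is at 0.05 with HIF1A knockdown.

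The difference between these effects was tested directly as an interaction. For FOXA1 with HIF1A knockdown 3 of the 10 keratins were called, where 7.61% of all genes were. The rise with FOXA1 knockdown was smaller with shHIF1A than without for KRT6B (difference -4.34 ± 0.32, limma, adjusted p = 5.73e-07), KRT16 (-2.65 ± 0.24, 3.68e-06) and KRT6A (-1.72 ± 0.46, 0.0292). The KRT6A call was lost without control replicate 1 (0.0559), shHIF1A replicate 1 (0.0653) or 3 (0.0758), replicate 1 of the double knockdown (0.0565), or the 3 libraries with high short genes (0.0841). KRT36 was at 0.12, with a 95% interval of -0.48 to 0.73, and KRT14 at 0.84, with one of 0.17 to 1.51 (0.130). The difference of KRT8 was at -0.55 (0.142), and it passed with median-ratio scaling (0.0483), with quantile normalisation (0.000163), without control replicate 1 (0.0298), or without the 3 libraries (0.0332).

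For FOXA1 knockdown with KC7F2, 1 of the 10 keratins was called, where 0.0775% of all genes were. That gene was KRT16, at -3.22 ± 0.24 (limma, adjusted p = 4.92e-06), the smallest adjusted p among the 10 genes of the whole table that passed. The other 9 were ENC1, MAF, NRCAM, S100A9, ENDOD1, ATP2B1, CD24, COL17A1 and ITGA6. Of these 10 calls 2 were higher and 8 lower, against 4 and 4 with median-ratio scaling. KRT6B, at -1.75 ± 0.32, stood just above the threshold (0.0542) and passed without control replicate 1 (0.0256). KRT6A was at -1.56 ± 0.46 (0.305).

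With the HIF1A shRNA added to FOXA1 knockdown, the stress keratins KRT6B, KRT16 and KRT6A fell and the hair keratin KRT36 rose. Of the 10 keratins 1 rose and 3 fell, where 24% of all genes rose and 13.5% fell (17.5% and 18.5% with median-ratio scaling, which moved the median change of all genes from 0.10 to -0.01). KRT6B fell by 4.41 ± 0.23 (limma, adjusted p = 8.16e-10), the largest fall of all 12900 genes, to 0.0292 of its reads at equal depth (0.0190 to 0.0430). KRT16 fell by 2.18 ± 0.17 (7.18e-08) and KRT6A by 1.12 ± 0.32 (0.0122), while KRT36 rose by 0.71 ± 0.20 (0.0112). The KRT6A call was lost without replicate 1 of the double knockdown (0.0694), a library with KRT6A at 0 and the lowest depth of all, and the KRT36 call without shFOXA1 replicate 1 (0.0573). Neither KRT14 (0.09, -0.39 to 0.56) nor KRT19 (0.43, -0.03 to 0.89) passed. KRT8, at -0.30 (0.132), passed with median-ratio scaling (0.0135) and quantile normalisation (0.00318). FOXA1 itself was higher in the double knockdown than in shFOXA1, as given above, and its part in these differences was not tested.

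Adding KC7F2 to FOXA1 knockdown gave 0 rising and 3 falling keratins of the 10, where 1.71% of all genes rose and 2.37% fell. KRT16 fell by 3.17 ± 0.17 (limma, adjusted p = 1.65e-08), the largest fall in the table, KRT6B by 2.44 ± 0.23 (9.34e-06) and KRT6A by 1.55 ± 0.32 (0.0105). The KRT6A call was lost without replicate 2 of shFOXA1 with KC7F2 (0.0581), again a library at 0. KRT36 was at -0.51 (0.207) and KRT14 at -0.29 (0.590). Both additions are set against the same shFOXA1 libraries. Side by side, KRT16 was at -2.18 with shHIF1A and -3.17 with KC7F2, and KRT6B at -4.41 and -2.44, so KRT16 was lower with the compound and KRT6B with the shRNA, and in both genes the libraries of these 2 groups did not overlap. The difference between the additions was not tested.

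**Figure D4:**
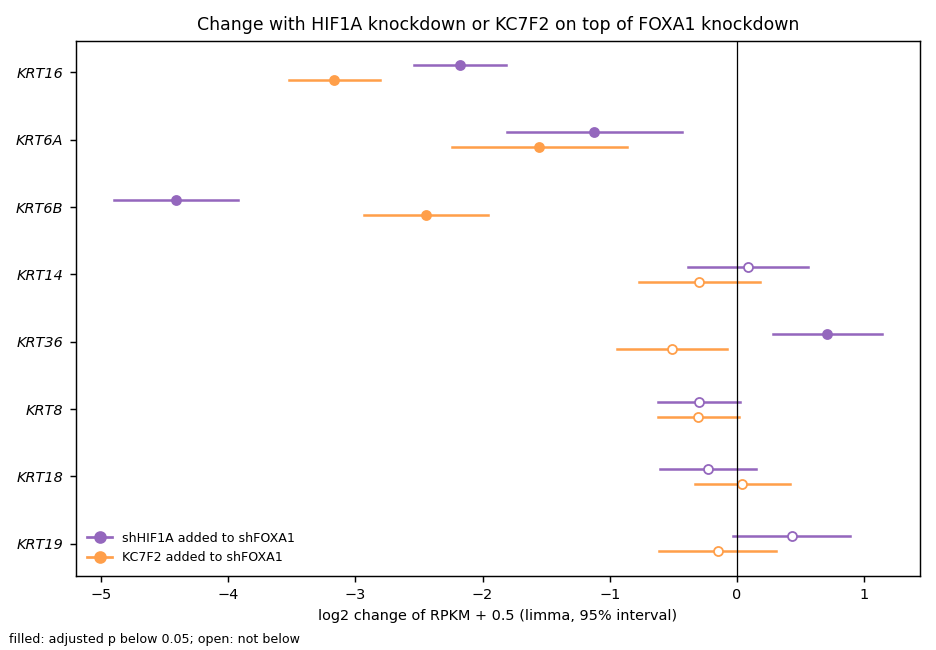
Change in shFOXA1 cells when shHIF1A or KC7F2 was added (log2 of RPKM + 0.5, limma estimate and 95% interval) for the 8 tested keratins; filled points passed an adjusted p of 0.05. KRT16, KRT6A and KRT6B fell with either, KRT36 was at 0.71 with shHIF1A and -0.51 with KC7F2, and the intervals of KRT18 include 0.

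HIF1A knockdown and KC7F2 were also tested without FOXA1 knockdown. With HIF1A knockdown against control 3 of the 10 rose and 1 fell, where 25.9% of all genes rose and 16.1% fell. KRT36 rose by 0.59 ± 0.20 (limma, adjusted p = 0.0278), KRT16 by 0.48 ± 0.17 (0.0324) and KRT19 by 0.60 ± 0.22 (0.0345), and KRT14 fell by 0.76 ± 0.22 (0.0125). None of these 4 calls held without shHIF1A replicate 3 (0.0509 to 0.125). Those of KRT16 and KRT36 were also lost without control replicate 1 (0.0701 and 0.0941) or 3 (0.108 and 0.0584), and that of KRT16 without shHIF1A replicate 2 (0.107). That of KRT36 was lost without shHIF1A replicate 1 (0.0789), and that of KRT19 without control replicate 3 (0.192) or shHIF1A replicate 1 (0.114). Without the 3 libraries with high short genes, KRT16 (0.0795), KRT14 (0.0531) and KRT36 (0.111) did not pass. KRT8, at 0.25 (0.202), passed without control replicate 1 (0.0258), without the 3 libraries (0.0261) and with quantile normalisation (0.000129).

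With KC7F2 against control 0 of the 10 keratins were called by limma, where 1.05% of all genes rose and 0.992% fell (0.775% and 1.504% with median-ratio scaling). At an unadjusted p below 0.05 there were 3: KRT14 at -0.87 ± 0.22 (adjusted p = 0.0584), KRT19 at -0.73 ± 0.22 (0.121) and KRT6B at -0.70 ± 0.23 (0.174). KRT14 and KRT19 passed with median-ratio scaling (0.0303 and 0.0439), and KRT19 passed without control replicate 3 (0.00790).

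The table holds 45 other keratin genes, of which 5 passed the filter on low values and 4 were listed at 0 in every library. Of these 5, 3 rose and 0 fell with FOXA1 knockdown against control, beside 9.52% and 14.6% of all genes. KRT6C reached 1 RPKM only with shFOXA1, so it too could enter the test only by being high there. KRT6C rose by 2.76 ± 0.26 (limma, adjusted p = 6.11e-07), KRT15, a basal type I keratin, by 1.52 ± 0.23 (0.000106), and KRT80 by 0.64 ± 0.20 (0.0275). KRT10, a keratin of differentiating epidermis, was at -0.12 (0.564) and KRT2 at 0.89 ± 0.38 (0.1005). When shHIF1A was added to shFOXA1, KRT6C fell by 3.08 ± 0.26 (limma, adjusted p = 1.45e-07) like its copies, while KRT15 rose by 1.27 ± 0.23 (0.000350) and KRT80 by 1.99 ± 0.20 (1.13e-06). The 8 pseudogene rows of keratins reached at most 0.317 RPKM.

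**Figure D5:**
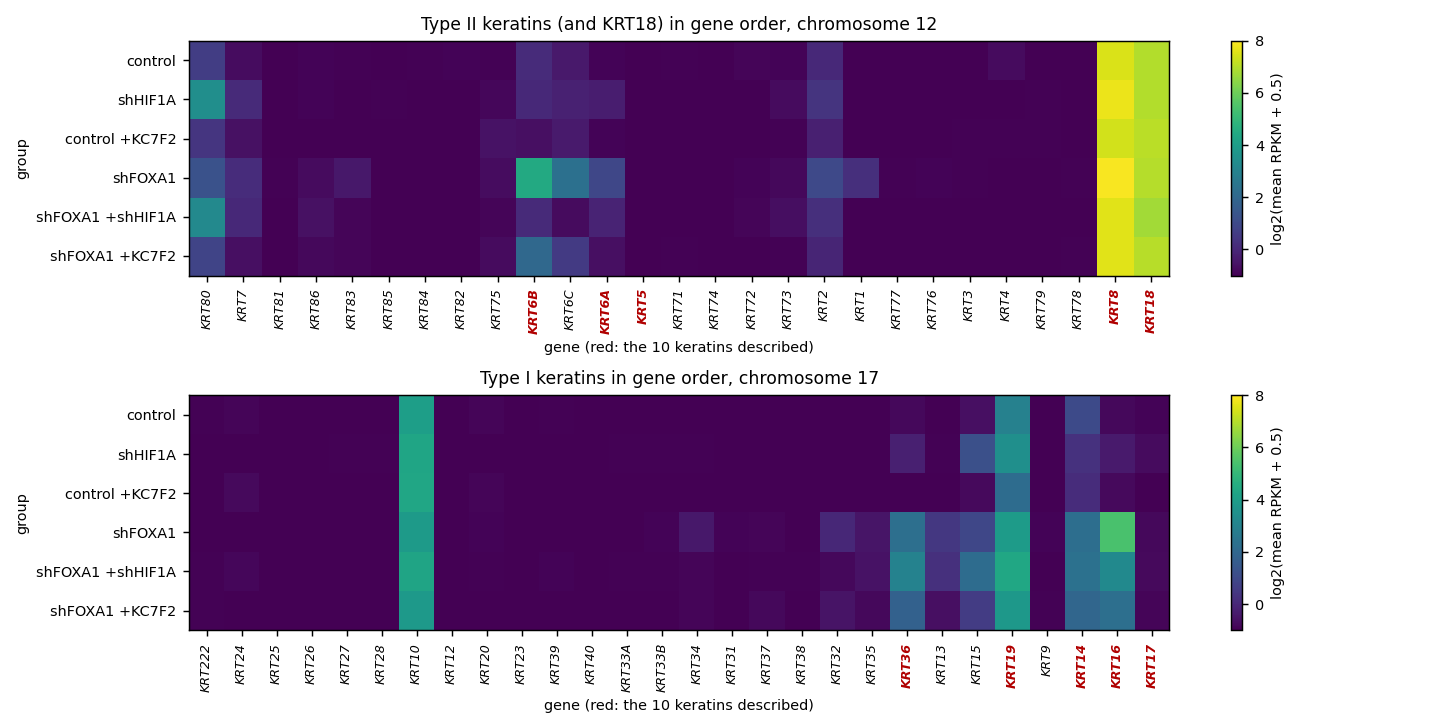
Mean level of each keratin gene as log2(mean RPKM + 0.5) by group (rows, 3 libraries each), in gene order along the chromosome 12 cluster (top) and the chromosome 17 cluster (bottom), with the 10 members in red. In shFOXA1 KRT16 is at 42.6 and KRT6B at 21.5 RPKM, while KRT17, next to KRT16, and KRT5 stay near 0 in every row.

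Genes that work with keratins were taken as lists, described by counts and medians beside the median of -0.09 over all genes, and the 9.52% that rose and 14.6% that fell, in FOXA1 knockdown against control. SBSN, SPRR2A and DST reached 1 RPKM only in libraries with shFOXA1, so their entry into the counts rests on being high there. Of the cornified envelope and squamous genes, the cross-linked shell of terminally differentiated keratinocytes, 10 of 25 in the table were tested, 4 rose and 1 fell, median 0.38. Involucrin (IVL) rose by 2.96, SBSN by 3.71, ANXA1 by 2.09 and SPRR2A by 1.93 (limma, adjusted p at most 1.20e-05). CSTA, a cysteine protease inhibitor, fell by 0.85 (0.0402). When shHIF1A was added to shFOXA1, 24% of all genes rose and 13.5% fell. In this list 4 rose, among them IVL by 0.85 and ANXA1 by 2.73, and 2 fell, SBSN by 2.75 and SPRR2A by 0.67. When KC7F2 was added to shFOXA1, 1.71% of all genes rose and 2.37% fell. In this list 0 rose and 3 fell, namely SBSN by 1.64, SPRR2A by 1.62 and S100A7 by 1.58 (limma, adjusted p at most 0.0414). SBSN and SPRR2A entered only through libraries with shFOXA1, so these counts describe the list and are no test.

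Keratin filaments end on junctions with neighbouring cells and with the matrix. Of the desmosome genes 8 of 12 were tested, 1 rose (JUP, plakoglobin, by 0.42) and 2 fell (PERP by 0.65 and DSG2 by 0.36), median -0.22, counts near the shares over all genes. Of the hemidesmosome and cytolinker genes 11 of 12 were tested, 4 rose and 1 fell, median 0.27. LAMB3, a laminin chain, rose by 3.03, collagen COL17A1 by 3.21, the integrin chain ITGA6 by 1.54 and periplakin (PPL) by 0.48, and CD151 fell by 0.58 (limma, adjusted p at most 0.0210). With KC7F2 added, COL17A1 fell by 1.55, ITGA6 by 0.74 and LAMB3 by 0.70.

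Of the regulators of keratin genes 21 of 27 were tested, 11 rose and 2 fell, median 0.29. SOX9 rose by 2.89, the AP-1 subunit FOSL2 by 2.59 and KLF4 by 1.34 (limma, adjusted p at most 9.81e-08), and KLF5 fell by 1.53. TP63, the master regulator of basal and squamous epithelium, was at or near 0 in every group, with a highest library of 0.0199 RPKM. Of the other intermediate filament genes 8 of 14 were tested, 3 rose and 1 fell, median 0.17. SYNM rose by 1.19, BFSP1 by 0.60 and LMNA by 0.49, and LMNB1 fell by 1.04. Of the genes of keratin binding and turnover 8 of 12 were tested, 3 rose and 0 fell, median 0.10, with SFN, a 14-3-3 protein that binds keratins, rising by 2.90, TRIM29 by 1.72 and EGFR by 1.23.

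Markers of cell types were measured beside the keratins. Of 9 markers of the luminal line in the table all were tested, 1 rose and 5 fell with FOXA1 knockdown, and their summed RPKM was 1574 to 1866 in control and 1063 to 1136 in shFOXA1. ACPP fell by 2.46, SLC45A3 by 2.95 and FOLH1 by 1.27, so the line's luminal genes were present and lower. Of 9 basal or squamous markers 4 were tested and 2 rose, TRIM29 and SERPINB5 (by 0.60), with a summed RPKM of 11.8 to 15.3 in control, 17.5 to 18.2 in shFOXA1, 25.3 to 26.1 in the double knockdown and 13.8 to 16.3 in shFOXA1 with KC7F2. Besides TP63, BNC1 was listed at 0 in all libraries and DSG3 in all but 1 library, of control with KC7F2. The summed basal markers were as high in shHIF1A (23.8 to 29.1) as in the double knockdown, and in shHIF1A KRT16 was at most 0.357 RPKM; their part in the keratin results was not tested.

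The remaining marker sums were low. Of 6 urothelial markers 3 were tested, 0 rose and 2 fell, PPARG by 0.76 and UPK3A by 0.68, with a sum of 10.7 to 14.2 RPKM in control and 5.85 to 10.9 in shFOXA1. The 7 fibroblast markers summed to 2.62 to 3.50 RPKM in control and 2.24 to 2.85 in shFOXA1, and 0 of 2 tested were called with FOXA1 knockdown. They summed to 7.98 to 9.26 RPKM in shHIF1A and 5.28 to 5.94 in the double knockdown. Both tested, COL1A1 and COL3A1, rose with HIF1A knockdown against control (by 1.45 and 0.87), where 25.9% of all genes rose. Both also rose with HIF1A knockdown added to FOXA1 knockdown (by 0.98 and 0.86), where 24% of all genes rose. The 6 leukocyte markers summed to at most 0.778 RPKM and the 5 neuroendocrine markers to at most 1.12 RPKM in any library, with none tested, and the 4 endothelial markers to 0.548 to 0.794 RPKM in control and 0.637 to 0.842 in shFOXA1, with 0 of 1 tested called with FOXA1 knockdown.

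Over the 18 libraries the genes whose log2 levels followed KRT16 most closely were MGP (Pearson r = 0.98), NRCAM (0.97) and S100A9 (0.97). S100A9, a calcium-binding protein of inflamed epithelium, stood at 0.928 ± 0.263 RPKM in control, 48.9 ± 5.62 in shFOXA1, 7.92 ± 2.26 in the double knockdown and 13.9 ± 1.32 in shFOXA1 with KC7F2. KRT6B was followed by RPE65 (0.97), GJA1 (0.97) and ITGA6 (0.96), and KRT6A by CITED1 (0.87), OGFRL1 (0.86) and ASS1 (0.85). KRT36 was followed by PLA2G2A (0.98), BARX2 (0.97) and EMP1 (0.96), and KRT14 by THBS1 (0.95), ZNF697 (0.93) and ST8SIA2 (0.91). KRT8 was followed by IL32 (0.88), ID1 (0.85) and CYB5A (0.85), KRT18 by ARL6IP4 (0.88), RMDN3 (0.87) and HLA-C (0.85), and KRT19 by EZR (0.94), NFKBIA (0.93) and SOX4 (0.92). Among the members, KRT16 had r = 0.90 with KRT36, 0.85 with KRT14 and 0.81 with KRT6B, and -0.11 with KRT18, while KRT8 and KRT18 had 0.49. These values describe 18 libraries that share 6 groups and their depths, and carry no test.

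RefSeq promoters (GRCh38.p14, 250 bases before to 50 after the start) were at hand for KRT36 (chr17:41489861-41490160), KRT5 (chr12:52520345-52520644) and KRT8 (chr12:52926420-52926719). Each window lies inside the GENCODE span of its gene given above, and other starts of these genes were not searched. On both strands, the pattern TNTTTAC, used for forkhead sites, occurred once, in KRT36, 158 bases before its RefSeq start, and in 10.8% of all 35116 promoters of this length. That match reads TTTTTAC at the end of a run of T, with T at the free base N. Binding of FOXA1 there was not tested. The AP-1 motif TGANTCA (7.71% of promoters), the core of hypoxia response elements ACGTG (21.4%) and TATAAA (11.5%) had no match in these 3 windows.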

How the data were processed

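The authors deposited 1 table of RPKM values per gene for all 18 libraries; the submitters' processing notes name STAR and the build hg38. How reads were counted, with which strand setting and with what treatment of reads that match several genes, no source used here gives. Of 26475 lines, 32 without values were left out. Values were tested as log2(RPKM + 0.5) with limma 3.58.1 (R 4.3.3; trend, 6-group model, 12 residual degrees of freedom, 9 contrasts), for 12900 genes with at least 1 RPKM in 3 libraries, with Benjamini-Hochberg adjustment within a contrast. Members are named in each contrast in which they were called, and uncalled members only in some contrasts. Other keratins that were tested are named in some contrasts only. Also named are up to 4 called genes per list by adjusted p, single genes a result turns on, and the 3 closest genes by correlation. CSTA, CD151, KLF5, S100A7, VIM, ITGB4, COL1A1, COL3A1, DST and KRT13 were named after their values were seen. Some called genes of the lists are not reported here by name. Alternatives were other pseudocounts, filters, scalings, samples in the fit, a replicate block and each library left out. The members and lists were chosen with earlier results of these data known. Depth was recovered from 2353 genes of at most 200 bases, whose values were whole multiples of 1 read within 2% for 79.1% to 89.4% of low values. Reads are given only for members whose low values showed such steps. On simulated data for FOXA1 knockdown against control over 12381 genes, 30 of 50 genes changed 1.5-fold, 88 of 100 changed 2-fold and 50 of 50 changed 4-fold were called, with 13 false calls. Changes were placed only in genes with a mean log2(RPKM + 0.5) above 1, so these rates do not cover lower genes such as KRT6A. Coding sequence came from GENCODE 29 transcripts (longest open reading frame) and promoters from RefSeq. Python 3.11.15 was used for the rest.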

Additional observations from a re-analysis of the deposited data

Results flagged for a closer look

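The effect of FOXA1 knockdown on 3 keratins differed with and without HIF1A knockdown by an interaction term in limma. The log2 difference was -4.34 for KRT6B (limma, adjusted p = 5.73e-07), -2.65 for KRT16 (3.68e-06) and -1.72 for KRT6A (0.0292), each a smaller rise with shHIF1A in place. The KRT6A call held in 10 of 17 alternatives, and those of KRT6B and KRT16 held in all 21. FOXA1 itself fell by 0.89 with its shRNA in shHIF1A cells and by 1.47 without shHIF1A, and its part was not tested. For KRT16 the effect also differed with and without KC7F2, by -3.22 (4.92e-06). The groups hold 3 libraries each, too few to test for a library far from the others.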

How the results depend on the processing

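Over all alternatives, 1075 values of member changes kept their direction and their side of the threshold, 46 lost a call, 21 gained one and 1 turned. KRT16, KRT6B, KRT36, KRT14, KRT19 and KRT6A kept their calls with FOXA1 knockdown against control in every alternative in which they were tested, KRT6A not being tested when a shFOXA1 library was left out and KRT14 and KRT6A not at 5 RPKM or more. The KRT8 call held in 8 of 15 (adjusted p 7.83e-06 to 0.200) and was also lost with no filter (0.0827) and with only the groups compared (0.200). The call of 4 members with HIF1A knockdown against control became 2 with a pseudocount of 1, with no filter and without the 3 libraries with high short genes (an alternative chosen after seeing the data), and 1 at 5 RPKM or more and with only the groups compared. With KC7F2 against control, 0 became 1 with a pseudocount of 0.1, 2 with median-ratio scaling and 1 with quantile normalisation. With HIF1A knockdown added to FOXA1 knockdown, 4 became 2 with a pseudocount of 0.1 (KRT6A 0.0566, KRT36 0.111). That pseudocount also ended the KRT6A calls with KC7F2 added to FOXA1 knockdown (0.0614) and in the interaction with HIF1A knockdown (0.0644), the latter lost too with only the groups compared (0.0683). The interaction with KC7F2 went from 1 to 2 members with a pseudocount of 1 (KRT6B 0.00195) and with quantile normalisation (0.0464). KRT18 with FOXA1 knockdown in KC7F2-treated cells turned from -0.05 to 0.33 with quantile normalisation (0.0442). The causes were not tested.

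Leaving out 1 library at a time, the members called ranged from 5 to 7 with FOXA1 knockdown, 0 to 4 with HIF1A knockdown and 0 to 1 with KC7F2. They ranged from 2 to 4 and 2 to 3 with HIF1A knockdown or KC7F2 added to FOXA1 knockdown, 3 to 4 and 5 to 5 with FOXA1 knockdown in HIF1A-depleted and KC7F2-treated cells, and 2 to 3 and 1 to 2 in the interactions.

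Replicate numbers paired the libraries in part at most. Of 45 same-numbered pairs 9 had a correlation over 0.1 (range -0.214 to 0.252), and 9 of 18 libraries correlated best with their own number. The highest correlations were of control replicate 1 with replicate 1 of control with KC7F2 (0.252) and of shHIF1A (0.215). With the number as a replicate block the members called were 7, 4, 0, 4, 3, 4, 5, 3 and 1 over the 9 contrasts, the same counts as without it. Depth limits KRT17, KRT5, KRT6A and the control levels of KRT16 and KRT36, which rest on a few reads.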

Other observations

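Some keratins and filament genes were higher with HIF1A knockdown. KRT80 stood at 1.04 ± 0.164 RPKM in control, 10.4 ± 2.05 in shHIF1A, 1.91 ± 0.208 in shFOXA1 and 9.03 ± 0.546 in the double knockdown (SD, n = 3), a rise of 2.81 ± 0.20 on the log2 scale with HIF1A knockdown against control (limma, adjusted p = 2.91e-08). KRT15 rose by 1.83 ± 0.23 in the same comparison (9.41e-06) and stood highest in the double knockdown, at 4.03 ± 1.07 RPKM. VIM, the intermediate filament protein of mesenchymal cells, stood at 2.33 ± 0.712 RPKM in control, 6.72 ± 1.06 in shHIF1A, 1.86 ± 0.129 in shFOXA1 and 23.3 ± 2.58 in the double knockdown. The hemidesmosome integrin chain ITGB4 rose by 1.86 ± 0.17 with HIF1A knockdown against control (4.45e-07), and of that list's 11 tested genes 8 rose and 0 fell there, where 25.9% of all genes rose and 16.1% fell, median 0.73 against 0.07 for all genes.

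KRT13, a keratin of internal stratified epithelia that did not pass the filter on low values, was listed at 0 in all control libraries and stood at 0.885 ± 0.293 RPKM in shFOXA1, 0.673 ± 0.457 in the double knockdown and 0.152 ± 0.137 in shFOXA1 with KC7F2.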
